A study of Mus musculus with 6 samples.

Results

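The genes described here encode 10 proteins of the smooth muscle contractile apparatus: Myh11, Myl9, Mylk, Acta2, Actg2, Tagln, Cnn1, Lmod1, Des and Synpo2. They were matched by symbol and make up 10 of the 21898 genes in the count table. They were picked because Myh11 is higher in the treated ovaries, so their values in that comparison are a description and test nothing. Wild-type fetal mouse ovaries were taken at 14.5 days post coitum (dpc) and cultured for 3 days in serum-free medium. One group, NAPQI, received 15 μM N-acetyl-p-benzoquinone imine, the reactive metabolite of acetaminophen. The other, Control, received an equal volume of ethyl acetate, the solvent. Each group has 3 libraries of total RNA from whole ovaries, and the question of the study was which transcripts the treatment moves. Whether the libraries came from separate litters or cultures, and whether ovaries were pooled, is not known from the labels. The spread between libraries may therefore be technical.

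Smooth muscle shortens when myosin filaments pull on actin filaments. Calcium and calmodulin activate myosin light chain kinase, which phosphorylates the regulatory light chain and so switches the myosin on, while myosin phosphatase reverses this. The genes are driven by serum response factor (SRF), which binds a short element called the CArG box, together with myocardin or the myocardin-related factors. In the ovary this programme is known from the walls of vessels, and later from the theca layer around growing follicles. Parts of it, above all smooth muscle actin and the light chain, are also used by cells that are not muscle.

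The promoters of the 2 most abundant of these genes are shown because they hold CArG boxes, the element that links the family to SRF. The RefSeq table (GRCm38.p6) holds a promoter of 300 bases, from 250 before the start of the gene to 50 after it, for 7 of the 10 genes: Acta2, Cnn1, Des, Lmod1, Myl9, Mylk and Synpo2. The Myl9 window lies at chr2:156775214-156775513 on the plus strand and the Acta2 window at chr19:34255324-34255623 on the minus strand. Capitals mark a CArG box of 10 bases with at most 1 mismatch in its 6 middle positions, and the pattern reads the same on both strands.
Myl9: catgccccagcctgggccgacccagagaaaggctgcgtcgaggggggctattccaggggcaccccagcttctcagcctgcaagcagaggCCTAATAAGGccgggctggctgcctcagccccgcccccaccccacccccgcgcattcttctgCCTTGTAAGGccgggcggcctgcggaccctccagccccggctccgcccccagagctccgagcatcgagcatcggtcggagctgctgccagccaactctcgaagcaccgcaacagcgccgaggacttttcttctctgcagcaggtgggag
Acta2: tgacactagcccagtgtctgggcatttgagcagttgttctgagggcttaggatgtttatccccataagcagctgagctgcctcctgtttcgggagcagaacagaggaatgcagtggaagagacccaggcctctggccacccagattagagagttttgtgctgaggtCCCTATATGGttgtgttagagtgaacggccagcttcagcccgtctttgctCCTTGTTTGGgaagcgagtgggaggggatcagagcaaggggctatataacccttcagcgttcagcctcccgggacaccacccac
An exact box was found in the promoter of Myl9, 1 of the 7, and in 1.63% of all 32851 promoters in the table. The exact box of Myl9, CCTAATAAGG, begins 161 bases before the start. With 1 mismatch allowed, 2 of the 7 promoters and 9.98% of all promoters held a box. The 2 boxes of Acta2, CCCTATATGG and CCTTGTTTGG, begin 84 and 34 bases before the start and each hold a single C or G in the middle. The other 5 windows held no such match. A match describes letters in a window and is not evidence of binding.

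Per unit length, the genes differed widely in level, as the plot of FPKM by gene shows. FPKM is the deposited count divided by gene length and by the library's total count, and the median over all tested genes was 6.87 FPKM. Myl9, the regulatory light chain, stood highest with 269, 286 and 228 FPKM in the NAPQI libraries, against 350.0, 246 and 303 FPKM in the Control libraries. Acta2, the alpha smooth muscle actin of vessels, followed at 36.9 ± 7.02 FPKM in NAPQI ovaries and 44.0 ± 21.2 FPKM in Control ovaries (SD, n = 3 each). Myh11, the myosin heavy chain specific to smooth muscle, stood at 12.4 ± 0.190 FPKM in NAPQI ovaries and 7.04 ± 2.19 FPKM in Control ovaries. Mylk, the light chain kinase, stood at 9.35 ± 0.699 FPKM in NAPQI ovaries and 9.28 ± 0.0136 FPKM in Control ovaries. Des, the muscle intermediate filament desmin, was the fifth at 3.39 ± 0.586 FPKM in NAPQI ovaries and 3.09 ± 0.547 FPKM in Control ovaries.

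**Figure D1:**
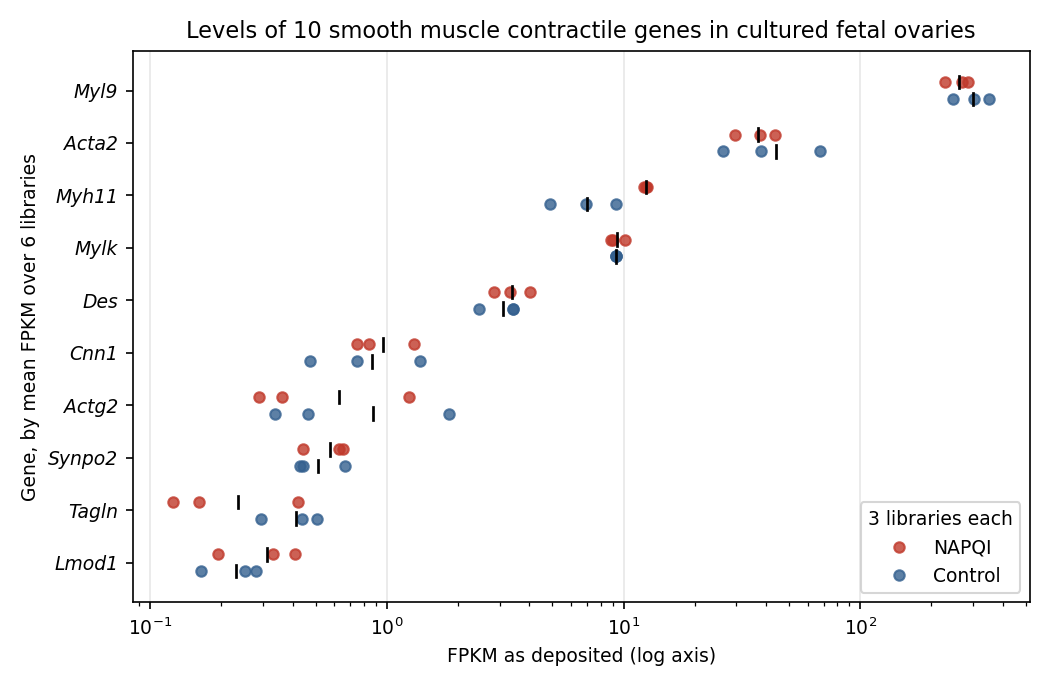
Deposited FPKM on a log axis for each of the 10 genes, ordered by their mean over the 6 libraries, with NAPQI libraries above and Control libraries below in each row; points are libraries and black bars are group means. Myl9 lies highest, between 228 and 350.0 FPKM, and Cnn1, Actg2, Synpo2, Tagln and Lmod1 lie lowest, all under 2 FPKM.

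The remaining genes were scarce. Cnn1 (calponin, an actin-binding protein), Actg2 (the gamma actin of visceral smooth muscle), Synpo2 (an actin-bundling linker), Tagln (transgelin, also called SM22 alpha) and Lmod1 (leiomodin, which starts actin filaments) each averaged under 1 FPKM in both groups. In this order Myh11 and Mylk overlapped in their library values, and so did each neighbouring pair from Cnn1 down to Lmod1. Myl9, Acta2, the Myh11 and Mylk pair, Des and the scarce genes did not overlap with the next level. The order was the same for all 10 genes when CPM, the count scaled to a common library total corrected for composition by the TMM method, was divided by gene length. Tagln had only 4, 5 and 12 counts in the NAPQI libraries and 10, 15 and 14 counts in the Control libraries. Against the contractile label, Tagln, Cnn1 and Actg2, which mark differentiated smooth muscle, were among the scarcest, and only Myl9, Acta2, Myh11 and Mylk lay above the median of all tested genes.

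Myh11 was the 1 gene of the 10 with all NAPQI libraries above all Control libraries, against 7.26% of all tested genes. It had 94.5, 94.3 and 91.4 CPM in NAPQI replicates 1, 2 and 3, against 70.6, 53.1 and 38.2 CPM in Control replicates 1, 2 and 3. The NAPQI libraries were close to each other and all lay above the Control libraries, which were spread over a 1.85-fold range. The mean was 93.4 ± 1.77 CPM in NAPQI ovaries and 53.9 ± 16.2 CPM in Control ovaries (SD, n = 3 each), with a log2 fold change of 0.79 ± 0.16 (SE of the edgeR fit). In the authors' deposited table the mean normalised count was 1458 with NAPQI and 840.2 in control, a ratio of 1.74. The deposited table places Myh11 (ENSMUSG00000018830) on the minus strand of chromosome 16, from 14012399 to 14109236 (GRCm39). Of its 6500 transcript windows of 50 bases (GENCODE M21), 0.4% also occur in another gene, among them the non-muscle heavy chains Myh9 and Myh10.

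The size of the Myh11 difference depended on the Control libraries. The log2 fold change was 0.60 without Control replicate 3, 1.04 without Control replicate 1, and between 0.78 and 0.81 with any other library left out. Without Control replicate 1 edgeR called Myh11, in a fit that called 18 of 14935 genes. Control replicate 3, where Myh11 was lowest, had the smallest total, 13879347 counts, against 14288452 to 17258609 in the others. The next smallest total was that of NAPQI replicate 3, where Myh11 stood at 91.4 CPM. Control replicate 3 stood apart by gene length. Across genes, the Spearman correlation between length and the library's deviation from the mean log2 CPM was -0.300 in Control replicate 3, and 0.0487 to 0.167 in the NAPQI libraries and -0.0986 and 0.112 in the other Control libraries. Myh11 is long, at 7599 bases. With each library's length trend removed, an alternative chosen after seeing the data, the difference of its mean log2 CPM was 0.80, against 0.83 uncorrected on the same scale. The part of the library total was not tested.

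**Figure D2:**
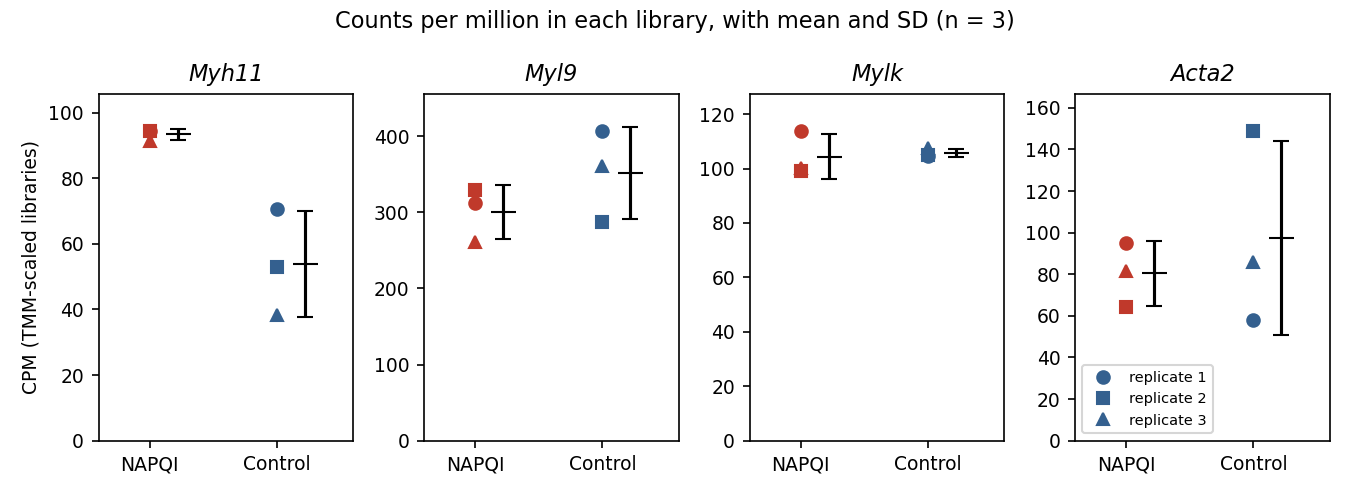
CPM (counts scaled to TMM-corrected library totals) of Myh11, Myl9, Mylk and Acta2 in each NAPQI and Control library, with marker shape for the replicate number and bars for mean and SD (n = 3). For Myh11 the 3 NAPQI libraries, from 91.4 to 94.5 CPM, lie above the 3 Control libraries, from 38.2 to 70.6 CPM; the groups overlap for the other 3 genes.

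The regulatory light chain gene Myl9 and the kinase gene Mylk did not show this pattern. Myl9 had 312, 329 and 261 CPM in the NAPQI libraries, against 407, 287 and 361 CPM in the Control libraries. The groups overlapped and the log2 fold change was -0.23 ± 0.13, or -0.35 to -0.10 with 1 library left out. Mylk had 114, 98.9 and 100.3 CPM in the NAPQI libraries, against 104, 105 and 107 CPM in the Control libraries. The Control libraries lay inside the NAPQI range, and the log2 fold change was -0.02 ± 0.09, the most narrowly bounded of the 10. Myl9 lies on chromosome 2 from 156617340 to 156623578 and Mylk on chromosome 16 from 34565580 to 34822790, both on the plus strand (GRCm39).

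The actins varied between libraries more than between groups. Acta2 had 95.1, 64.2 and 81.8 CPM in the NAPQI libraries, against 57.8, 149 and 85.9 CPM in the Control libraries. Control replicate 2 was highest and Control replicate 1 lowest, so the Control libraries enclosed all NAPQI libraries. The log2 fold change was -0.28 ± 0.26 with all libraries and 0.17 without Control replicate 2. Actg2 had 1.92, 0.443 and 0.552 CPM in the NAPQI libraries, against 0.526, 2.85 and 0.739 CPM in the Control libraries. Its value came from NAPQI replicate 1 and Control replicate 2, and the log2 fold change of -0.50 ± 0.68 became 0.65 without Control replicate 2 and -1.46 without NAPQI replicate 1. Actins are near-identical proteins, but their transcripts are less so. Of the windows of 50 bases in the longest coding transcript (GENCODE M21), 0.352% of those of Acta2 and 0% of those of Actg2 also occurred in transcripts of another gene. Acta2 lies on chromosome 19 from 34218490 to 34232990 and Actg2 on chromosome 6 from 83489887 to 83513247, both on the minus strand (GRCm39).

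The actin-binding genes were low and noisy. Cnn1 had 3.54, 2.02 and 2.28 CPM in the NAPQI libraries, against 2.05, 3.79 and 1.33 CPM in the Control libraries. As for Acta2 and Actg2, NAPQI replicate 1 and Control replicate 2 were the highest of their groups. The log2 fold change of Cnn1 was 0.12 ± 0.41, and -0.15 to 0.62 with 1 library left out. That of Lmod1, with counts of 9 to 23 per library, was 0.38 ± 0.45, and 0.15 to 0.64 with 1 library left out. Tagln had a log2 fold change of -0.84 ± 0.57, which was -0.52 without NAPQI replicate 1 and -1.52 without NAPQI replicate 3. The span of Tagln overlaps that of Pcsk7 by 108 bases on the opposite strand, and the labels do not say if reads were counted by strand, so reads there may belong to either gene. No other of the 10 spans overlapped a gene of the deposited table. Filament and linker genes were steadier. Des had 12.4, 10.6 and 14.8 CPM in the NAPQI libraries, against 9.23, 12.9 and 13.1 CPM in the Control libraries, and a log2 fold change of 0.11 ± 0.20, or -0.03 to 0.22 with 1 library left out. Synpo2 had a log2 fold change of 0.13 ± 0.25, or 0.03 to 0.37 with 1 library left out, and also overlapped between groups.

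**Figure D3:**
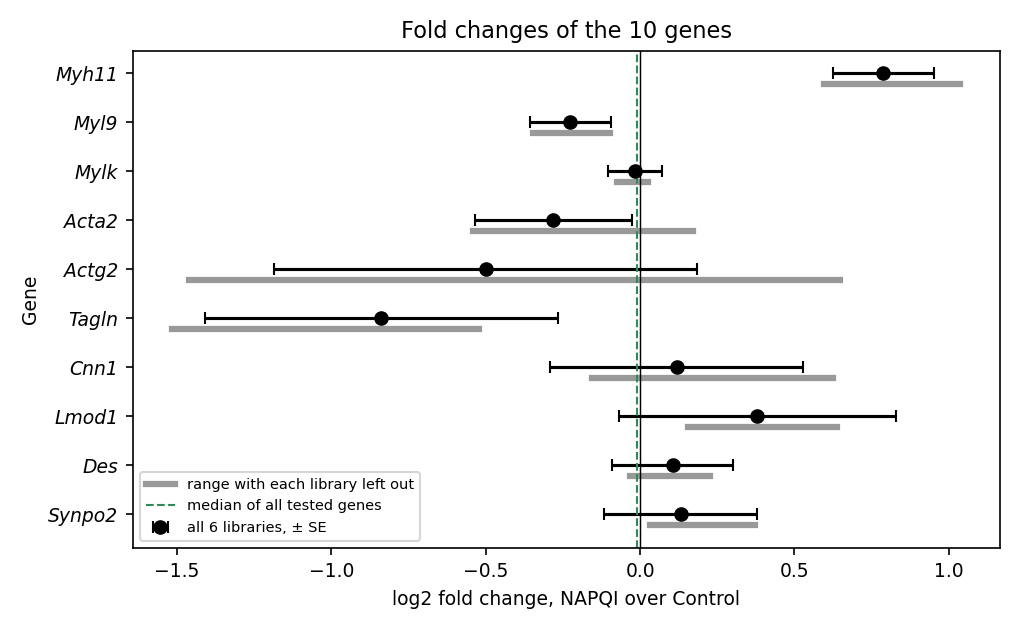
Log2 fold change of NAPQI over Control for the 10 genes from the edgeR fit, with SE (black) and the range when each library is left out in turn (grey); the dashed line is the median of all tested genes, -0.01. Myh11 lies at 0.79 with a range of 0.60 to 1.04, and the ranges of Acta2, Actg2, Cnn1, Mylk and Des cross 0.

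All 10 genes passed the filter on low counts. In the edgeR quasi-likelihood fit across 14736 genes, 0 of the 10 had an adjusted p under 0.05, where 12 genes or 0.0814% of all tested genes did. At an unadjusted p under 0.05 it was 1 of the 10, Myh11, against 9.24% of all genes. DESeq2 called Myh11, where it called 0.509% of all genes, and limma-voom called none of the 10. The 3 NAPQI libraries lay above the 3 Control libraries for 1 of the 10, against 7.26% of all tested genes, and below them for 0 of the 10, against 7.13%. The genes were picked from this comparison, so these counts are read no further. Of the log2 fold changes, 5 were positive and 5 negative. Their median was 0.04, and -0.02 without Myh11, beside -0.01 over all tested genes. With each library left out in turn the median over the 10 lay between -0.11 and 0.28.

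None of the other 9 contractile genes was among those most like Myh11 across the 6 libraries. Among genes with a mean of at least 1 CPM, the highest Pearson correlations of log2 CPM with Myh11 were those of Vldlr, Nudt12, Syk, Gpatch2 and Klhl26, between 0.990 and 0.992. They are given as a description: the 6 libraries share the groups, and with each group centred on its own mean none of these 5 was among the 5 nearest genes, although their own correlations were still 0.971 to 0.993. Vldlr, a receptor of the LDL receptor family, had 46.2, 46.9 and 43.0 CPM in the NAPQI libraries, against 39.0, 34.2 and 28.7 CPM in the Control libraries. Syk, a cytoplasmic tyrosine kinase, had 58.5, 56.0 and 54.3 CPM in the NAPQI libraries, against 46.0, 40.2 and 29.3 CPM in the Control libraries. Of the other contractile genes Lmod1 was nearest to Myh11, at 0.557, and Tagln farthest, at -0.747.

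The tissue label was checked by markers. Foxl2, the transcription factor of ovarian supporting cells, stood at 297 to 349 CPM in NAPQI ovaries and 332 to 405 CPM in Control ovaries, and the germ cell gene Ddx4 at 157 to 194 CPM in NAPQI ovaries and 151 to 188 CPM in Control ovaries. The single markers named from here on were chosen after their values were seen.

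Pericytes, the contractile cells of small vessels, can carry some of these genes. The summed level of 10 pericyte markers was 228 to 289 CPM in NAPQI ovaries and 196 to 270.5 CPM in Control ovaries, with Higd1b and Vtn under 1 CPM, and Pdgfrb, Mcam and Notch3 made up most of it. Of the 8 tested, 6 had a positive log2 fold change and 1, Abcc9, an unadjusted p under 0.05 by edgeR, against 9.24% of all genes. Abcc9, a subunit of the potassium channel of mural cells, had 26.3, 23.4 and 17.1 CPM in the NAPQI libraries, against 17.9, 11.2 and 15.7 CPM in the Control libraries (log2 fold change 0.58 ± 0.20, edgeR adjusted p = 0.413). Kcnj8, which encodes the pore of that channel, differed by 0.47 ± 0.27 on the log2 scale (edgeR adjusted p = 0.601). These were the largest rises of the list. Rgs5, Pdgfrb, Notch3 and Mcam differed by 0.11, 0.08, 0.05 and 0.03, and Cspg4 and Cox4i2 by -0.29 and -0.25. The sum of 12 endothelial markers was 233 to 293 CPM in NAPQI ovaries and 212 to 313 CPM in Control ovaries.

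Striated muscle has its own myosins and troponins. The sum of 19 such markers was 69.6 to 78.5 CPM in NAPQI ovaries and 75.3 to 94.2 CPM in Control ovaries, with 10 of the 19 under 1 CPM and Myod1 at 0 in every library. Its members went both ways, with 3 of 10 tested positive and 7 negative. Myh6, a cardiac myosin heavy chain, had 4.41, 4.11 and 2.42 CPM in the NAPQI libraries, against 1.99, 1.75 and 1.55 CPM in the Control libraries (log2 fold change 1.04 ± 0.34, edgeR adjusted p = 0.397). As for Myh11, all its NAPQI libraries lay above the Control libraries. Those of Ttn, Myh8 and Myog lay below, by -0.64 ± 0.24, -0.37 ± 0.14 and -0.36 ± 0.44 on the log2 scale (edgeR adjusted p = 0.438, 0.455 and 0.823). Thus 1 of the 10 lay above and 3 below, against 7.26% and 7.13% of all tested genes. Myog had only 11 to 12 counts per NAPQI library and 14 to 16 per Control library. By edgeR 3 of the 10 had an unadjusted p under 0.05, 1 higher and 2 lower, against 9.24% of all genes.

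Markers of other ovarian cells also differed in part. The sum of 10 stromal markers was 3583 to 5209 CPM in NAPQI ovaries and 4793 to 5573 CPM in Control ovaries. Log2 fold changes were below 0 for 9 of the 10, and by edgeR 5 passed an unadjusted p of 0.05, all of them lower, against 5.03% of all genes. Col3a1, a fibrillar collagen, differed by -0.37 ± 0.12 on the log2 scale (edgeR adjusted p = 0.403). The sum of 8 macrophage markers was 84.2 to 99.2 CPM in NAPQI ovaries and 93.9 to 128 CPM in Control ovaries. For 7 of the 8 the log2 fold change was below 0. By edgeR Cd68 and C1qc, 2 of the 8, passed an unadjusted p of 0.05, both lower, against 5.03% of all genes. The complement gene C1qc differed by -0.57 ± 0.19 on the log2 scale (edgeR adjusted p = 0.406). It was the 1 of the 8 with all NAPQI libraries below the Control libraries, against 7.13% of all genes. The sum of 8 mesonephros markers was 52.2 to 59.0 CPM in NAPQI ovaries and 60.2 to 64.8 CPM in Control ovaries. These sums did not overlap, which 7.13% of single genes did in that direction, but each of the 8 markers overlapped between the groups and 3 were under 1 CPM. The sums of the germ cell and pregranulosa markers overlapped. Of the 9 pregranulosa markers 4 had a positive log2 fold change and 5 a negative one. Wnt4 and Nr5a1, 2 of the 9, had all NAPQI libraries above the Control libraries, against 7.26% of all genes. They differed by 0.24 ± 0.09 and 0.19 ± 0.09 on the log2 scale (edgeR adjusted p = 0.422 and 0.542). By edgeR 1 of the 9, Wnt4, passed an unadjusted p of 0.05, higher, against 4.21% of all genes. In whole ovaries a change in the number of cells of a type and a change in RNA per cell cannot be told apart. The part of these cells in the level of Myh11 was not tested.

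Markers of the surface epithelium were highest in the same library as Acta2 and Actg2. The summed level of 8 such markers (Upk3b, Upk1b, Krt7, Krt8, Krt18, Krt19, Msln and Muc16) was 316, 213 and 379 CPM in NAPQI replicates 1, 2 and 3, against 152, 533 and 237 CPM in Control replicates 1, 2 and 3. Control replicate 2 was the highest and Control replicate 1 the lowest, as for Acta2. None of the 8 was at 0, and the sums of the groups overlapped. Control replicate 2 was also highest for Cnn1, Actg2 and Synpo2. Among the NAPQI libraries the sum was highest in replicate 3, while Acta2, Cnn1, Actg2 and Synpo2 were highest in replicate 1. Myh11 was at neither end in Control replicate 2, and Myl9 had its lowest Control value there. The part of surface epithelium in these values was not tested.

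**Figure D4:**
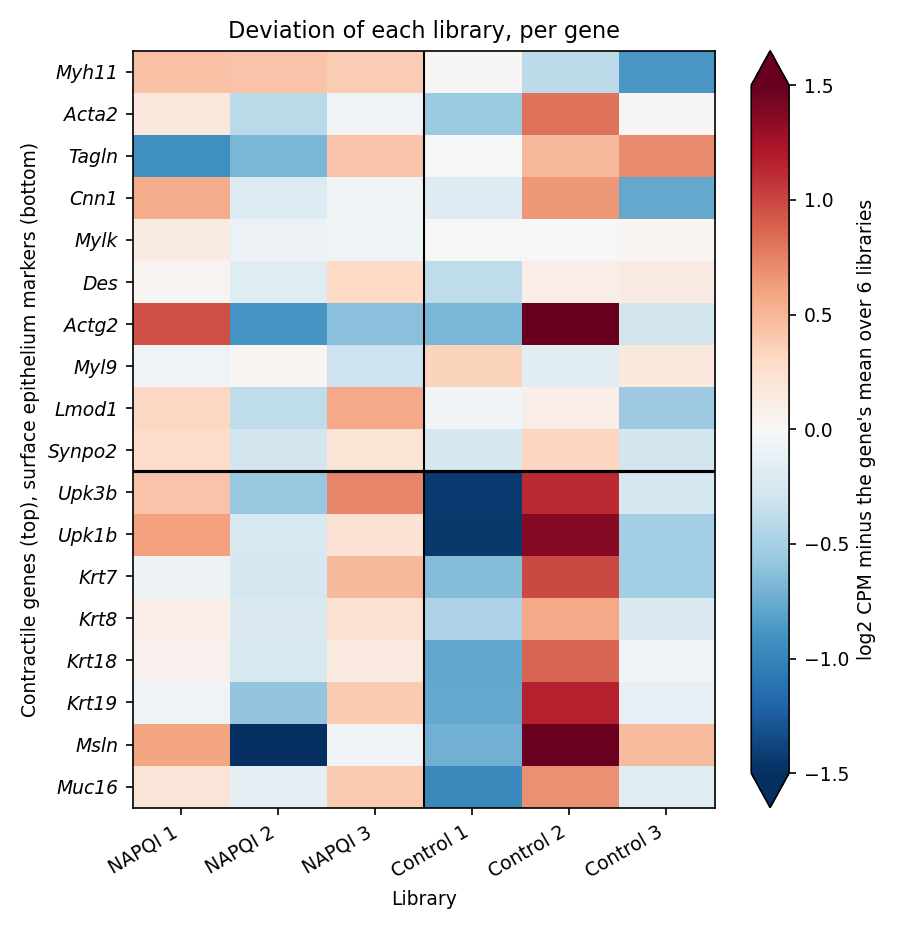
Deviation of each library from the gene's mean log2 CPM over 6 libraries, NAPQI libraries on the left and Control libraries on the right, for the 10 contractile genes (top) and 8 surface epithelium markers (bottom); colours are limited to ±1.5. Control replicate 2 is high for Acta2, Cnn1, Actg2 and all 8 epithelial markers, while Myh11 is high in the 3 NAPQI libraries and lowest in Control replicate 3.

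A further 103 genes of the same machinery, listed in 5 groups by role, were read in the same fit. Of the 95 with enough counts, 0 were called higher and 0 lower by edgeR over all genes (11 genes, 0.0746%, were called higher and 1, 0.00679%, lower in all). At an unadjusted p under 0.05 there were 27, 10 of them higher and 17 lower, against 4.21% and 5.03% of all tested genes. DESeq2 called 2 of the 95, Actb and Gucy1a1, against 0.509% of all genes, and limma-voom called 0. All NAPQI libraries lay above all Control libraries for 10 of the 95 and below for 14, against 7.26% and 7.13% of all tested genes. The median log2 fold change of the 95 was -0.07, with 37 positive and 58 negative, beside -0.01 over all tested genes.

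The regulators had a median log2 fold change of -0.17, and 5 of the 7 tested were negative. Srf, the factor that binds the CArG box, had 57.8, 73.5 and 47.2 CPM in the NAPQI libraries, against 81.0, 82.7 and 96.5 CPM in the Control libraries (log2 fold change -0.54 ± 0.14, edgeR adjusted p = 0.278). All NAPQI libraries lay below the Control libraries. Myocd, which encodes the smooth muscle coactivator myocardin, had 3.97, 3.80 and 4.01 CPM in the NAPQI libraries, against 2.10, 3.32 and 1.18 CPM in the Control libraries (log2 fold change 0.82 ± 0.36, edgeR adjusted p = 0.523). Its NAPQI libraries were close together and lay above the Control libraries, as for 7.26% of all tested genes. Control replicate 3 was lowest, as for Myh11, but Control replicate 2 was the highest Control library, where for Myh11 it was Control replicate 1. Myocd had only 16 to 64 counts per library, and a link between the 2 genes was not tested. Its log2 fold change was 0.53 without Control replicate 3 and 1.24 without Control replicate 2. The cardiac and mesodermal factor Gata6 differed by -0.29 ± 0.09 on the log2 scale (edgeR adjusted p = 0.398).

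Log2 fold changes were below 0 for all 14 tested thin filament genes, and their median was -0.18, where 7745 of all 14736 tested genes were below 0. The same 14 of 14 were negative under each of the 4 scalings of the libraries, which move all genes nearly alike. The median of all tested genes went only from -0.011 to 0.017 between scalings, and the least negative of the 14, Tpm1, stood at -0.05. The scalings therefore could not change a sign and are no check on this count. Without Control replicate 2 it was 11 of 14 and without NAPQI replicate 2 it was 12 of 14. Actb, the cytoplasmic beta actin, stood at 1248 ± 55.8 CPM in NAPQI ovaries and 1600.2 ± 158 CPM in Control ovaries (log2 fold change -0.36 ± 0.10, edgeR adjusted p = 0.306). Tpm3, a cytoskeletal tropomyosin, and Dstn, the actin-severing protein destrin, differed by -0.31 ± 0.09 and -0.28 ± 0.10 on the log2 scale (edgeR adjusted p = 0.335 and 0.412). By edgeR 5 of the 14 had an unadjusted p under 0.05, all of them lower (5.03% of all genes), and 0 an adjusted one. Actb and Dstn are short, at 2679 and 1911 bases, and Tpm3 has 6085 bases. The longest of the 14, Cald1 with 12041 bases, differed by -0.10, and the shortest, Smtnl1 with 1761 bases, by -0.38. The length trend differed between libraries, as given above for Myh11, and its part in the thin filament values was not tested.

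Myosin subunits and the genes that control myosin phosphorylation were balanced, with 9 of 18 positive and a median of 0.0007. With upper quartile scaling or library size alone it was 11 of 18, and with 1 library left out the median lay between -0.04 and 0.07. The non-muscle heavy chain Myh14 stood at 11.9 ± 2.44 CPM in NAPQI ovaries and 8.24 ± 0.528 CPM in Control ovaries (log2 fold change 0.52 ± 0.20, edgeR adjusted p = 0.442). The non-muscle regulatory light chain Myl12a had a log2 fold change of -0.40 ± 0.16 and Dapk3, a kinase that can phosphorylate the light chain, one of -0.42 ± 0.14 (edgeR adjusted p = 0.485 and 0.412). Both came to -0.23 when 1 library was left out, NAPQI replicate 1 for Myl12a and Control replicate 3 for Dapk3.

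Of 34 tested genes of dense plaques, dense bodies and linkers, 13 were positive and 21 negative, with a median of -0.07. Without Control replicate 2 it was 19 positive and 16 negative of 35, with a median of 0.008. Cav1, the coat protein of caveolae, stood at 279 ± 18.2 CPM in NAPQI ovaries and 201 ± 40.3 CPM in Control ovaries (log2 fold change 0.47 ± 0.13, edgeR adjusted p = 0.306). It was the only one of the 95 genes called by edgeR when Control replicate 2 was left out, with a log2 fold change of 0.63. That fit called 58 of 14961 genes. The intermediate filament gene Vim had 625, 587 and 579 CPM in the NAPQI libraries, against 702, 731 and 844 CPM in the Control libraries (log2 fold change -0.35 ± 0.10, edgeR adjusted p = 0.331), and the LIM-domain gene Fhl1 differed by -0.38 ± 0.11 on the log2 scale (edgeR adjusted p = 0.333).

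Of 22 tested genes of calcium handling, channels and receptors, 13 were positive, with a median of 0.04. Gucy1a1 and Gucy1b1, subunits of soluble guanylate cyclase, the nitric oxide receptor that relaxes smooth muscle, had all NAPQI libraries above all Control libraries. Gucy1a1 had 160.1, 163 and 154 CPM in the NAPQI libraries, against 130, 114 and 115 CPM in the Control libraries (log2 fold change 0.41 ± 0.09, edgeR adjusted p = 0.188). Gucy1b1 had 34.4, 36.9 and 28.1 CPM in the NAPQI libraries, against 25.9, 20.3 and 26.8 CPM in the Control libraries (log2 fold change 0.45 ± 0.15, edgeR adjusted p = 0.401). Cacnb2, a subunit of voltage-gated calcium channels, differed by -0.40 ± 0.11 on the log2 scale (edgeR adjusted p = 0.326).

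**Figure D5:**
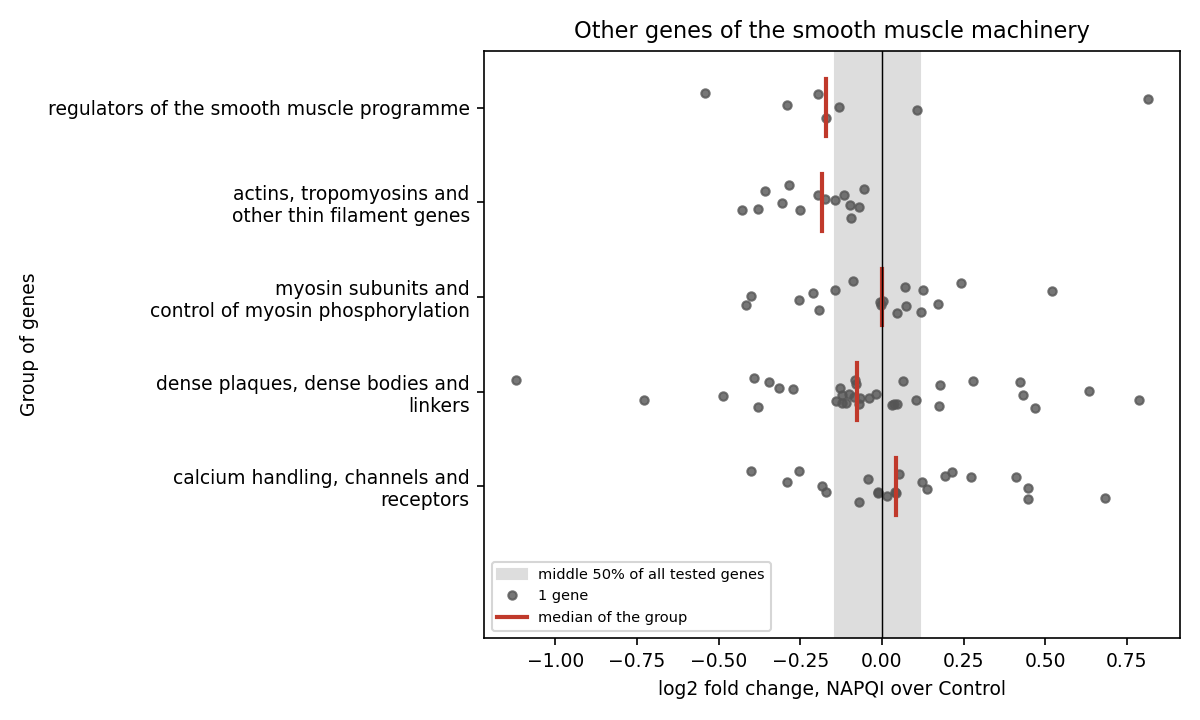
Log2 fold change of NAPQI over Control for the 95 tested genes of the smooth muscle machinery in 5 groups; points are genes, red bars group medians, and the grey band holds the middle 50% of all tested genes, from -0.14 to 0.12. All 14 thin filament genes lie below 0, and the group medians lie between -0.18 and 0.04.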

How the data were processed

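RNA of whole cultured ovaries was sequenced in 3 NAPQI and 3 Control libraries, grouped by their titles. Per the submitters' processing notes, reads were checked with FastQC 0.11.8, aligned with HISAT2 2.0.5 and counted with HTSeq 0.9.1 on GRCm39. Settings, strandedness and annotation release are unknown from the sources used. The authors deposited raw read counts per gene. The deposited FPKM values equalled count divided by deposited length and library total, in the usual FPKM scaling, within a relative difference of 1e-04. The authors' comparison table holds, per the file headers, mean normalised counts as signal, their fold ratio, its log2 value, and p-values.

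Counts were fitted in R 4.3.3 with edgeR 4.0.16 (filterByExpr with a minimum count of 10, TMM, two-sided quasi-likelihood F-test, Benjamini-Hochberg adjustment over 14736 genes, threshold 0.05). Library totals were 13879347 to 17258609 counts. An exact test of 3 against 3 libraries cannot give a two-sided p under 0.1. The members, lists and tests were chosen with earlier results of these data known. Named beyond the 10 genes were the 3 with the smallest p in each role group and the 5 most like Myh11 (log2 CPM, prior count 2). Single cell type markers were named after their values were seen. Alternatives were other scalings, filters, DESeq2 1.42.0, limma-voom 3.58.1, a replicate block, each library left out, and removal of the length trend (lowess, span 0.3, added after seeing the data). Figures used matplotlib 3.10.9.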

Additional observations from a re-analysis of the deposited data

How the results depend on the processing

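The log2 fold change of Myh11 stayed positive in all 15 alternatives, from 0.60 to 1.04 with 1 library left out and from 0.79 to 0.83 otherwise, including the replicate block at 0.83. The median over the 10 contractile genes lay between -0.11 and 0.28 with 1 library left out and between 0.003 and 0.12 otherwise, and changed sign. The count of genes called over the whole table, 12 as reported, was 48 with no filter on low counts, 75 by DESeq2, 1 by limma-voom and 1 with the replicate block, and 1 to 58 with 1 library left out. Of the 10 genes, 1 (Myh11) was called with no filter on low counts and by DESeq2, and 0 to 1 with 1 library left out (Myh11 without Control replicate 1). Of the other smooth muscle genes 2 were called by DESeq2 and 0 to 1 with 1 library left out. Their median ranged from -0.086 to 0.0043 with 1 library left out, and the positive value came without Control replicate 2. The cause of these changes was not tested. With 1 mismatch allowed, CArG boxes were found in 2 member promoters. With groups centred, 0 of the 5 genes most like Myh11 were the same, with the correlations of the 5 at 0.971 to 0.993. The share of promoters with an exact box was 1.35% among tested genes. For the 24 single genes, 329 of 334 alternatives kept the value within the replicate spread or on its side of the threshold. For the contractile genes a change of sign within the spread counted as kept, as for Acta2, from -0.28 to 0.17. The other named genes were all uncalled in the main fit, so for them it meant the same sign and again no call. The tally is therefore no measure of how stable the values are. Same-numbered replicates did not deviate together (correlations 0.0610, -0.178 and -0.0513), so the numbers were not taken as pairs. Counts of 4 to 49 per library left the log2 fold changes of Tagln, Actg2 and Lmod1 with standard errors of 0.57, 0.68 and 0.45, so a difference of the size measured for Myh11 lies within 2 of them at this depth.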
